A study of Mus musculus with 9 samples.

Results

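The genes described are 10 that serve the secretion of aqueous humor or the hydration of carbon dioxide in the eye: the water channels Aqp1, Aqp4 and Aqp5, the bestrophin Best2, the sodium bicarbonate cotransporter Slc4a4 and the carbonic anhydrases Car2, Car3, Car4, Car12 and Car14. They were picked by name from the symbol column of the count files and are 10 of the 18349 genes listed there. All 10 were listed in all 9 libraries, and 9 passed the filter on low counts, the exception being Car4. RNA of the mouse iris was sequenced in 3 groups with 3 libraries each, and every library pooled 3 irises of 1 genotype. The Sham group was VEGFR3 fl/fl mice treated with PBS, the injured controls were VEGFR3 fl/fl mice with corneal alkali injury (sodium hydroxide at 1 M, in a volume of 0.5 μL, left in place for 60 seconds in mice aged 6 weeks), and the remaining group was injured mice labelled VEGFR3 iLECko. VEGFR3 fl/fl mice carry loxP-flanked alleles of the gene for VEGFR3 (Flt4), and VEGFR3 iLECko mice carry in addition a tamoxifen-inducible Cre, CreERT2, driven by Prox1, a gene of lymphatic endothelium that other cells also use. Mice of every group, the VEGFR3 fl/fl littermates included, received tamoxifen at 80 mg/kg, on days 13 to 17 after the treatment of the cornea per the labels, and irises were taken at 10 weeks of age. The iris was separated from the ciliary body at its root and its outer edge was trimmed away before RNA was prepared. P-values below measure the spread between these pooled libraries.

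Aqueous humor is made by the double-layered epithelium of the ciliary body, which sits behind the root of the iris. Carbonic anhydrases turn carbon dioxide and water into bicarbonate and protons, bicarbonate and chloride are moved by cotransporters, exchangers and channels, the sodium pump drives the process, and water follows, in part through aquaporins. The back of the iris is covered by an epithelium that is continuous with that of the ciliary body and develops from the same rim of the optic cup, and some of these genes also have other known sites of use: Aqp1 in endothelial cells and stroma, Aqp4 in glia and ciliary epithelium, Aqp5 in secretory and surface epithelia, and Car3 in muscle and fat.

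Total counts lay between 16617187 and 18306359 per library, and replicates of a group differed by more than counting noise, with a chi-square per degree of freedom of 5.30 to 79.3. Flt4 was not lower in the libraries labelled VEGFR3 iLECko (log2 fold change 0.33, edgeR quasi-likelihood adjusted p = 0.20). It had 478, 370 and 476 counts there against 277, 353 and 400 in the injured controls, so these libraries are named by their label. The counts are of the whole gene in whole iris tissue, while the Cre is driven by Prox1. By staining for LYVE1, the study reported that lymphatic growth in the injured iris was blocked in VEGFR3 iLECko mice. CPM below are counts scaled to the size of each library on edgeR's TMM scale. Summed Y-linked expression was between 0.736 and 1.11 CPM in all 3 libraries labelled VEGFR3 iLECko and 0.804 CPM in injured control replicate 3. It was 51.1 CPM or more in each of the other 5 libraries, so the label and the mix of sexes in a pool cannot be fully told apart. Atp6v1c2 and Cacna1e, the genes that the study used to check for ciliary body tissue, had 3 to 27 and 19 to 33 counts per library (0.269 to 2.47 and 0.197 to 0.341 approximate TPM) and passed the test in no comparison. The study described both as undetectable, with a TPM below 1 throughout. By the approximate TPM here, which need not equal the study's, Atp6v1c2 reached 2.47 in Sham and 2.22 in the injured controls. These are the highest single libraries, and the group means were 1.38 and 0.92. Optc, which codes for the vitreous proteoglycan opticin and is taken here as a gene of the ciliary epithelium, was abundant. It had 8743, 6375 and 9142 counts in the Sham libraries.

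RefSeq (GRCm38.p6) gave a promoter for 6 of the 10 members (Aqp1, Aqp5, Car4, Car12, Car14 and Slc4a4). The windows of 3 of these, abundant members that differed between Sham and injured irises, are printed to show what lies just before the start of the transcript, each covering 200 bases before a transcript start: Car14 at chr3:95904686-95904885 on the minus strand, of which 6 bases fall in an annotated exon, Slc4a4 at chr5:89027766-89027965 on the plus strand, and Aqp1 at chr6:55336099-55336298 on the plus strand. The starts used for Car14 and Slc4a4 lie inside the span of the gene, so these are promoters of a shorter transcript. Letters in capitals mark a GC box, GGGCGG.
Car14: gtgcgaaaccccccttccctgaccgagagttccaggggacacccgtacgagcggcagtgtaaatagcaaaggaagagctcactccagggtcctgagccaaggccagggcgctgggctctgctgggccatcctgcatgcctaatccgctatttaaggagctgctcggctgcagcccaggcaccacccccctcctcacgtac
Slc4a4: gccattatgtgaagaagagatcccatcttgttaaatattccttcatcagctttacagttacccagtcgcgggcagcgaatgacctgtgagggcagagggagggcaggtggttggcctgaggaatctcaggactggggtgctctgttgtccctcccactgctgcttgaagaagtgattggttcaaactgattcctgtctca
Aqp1: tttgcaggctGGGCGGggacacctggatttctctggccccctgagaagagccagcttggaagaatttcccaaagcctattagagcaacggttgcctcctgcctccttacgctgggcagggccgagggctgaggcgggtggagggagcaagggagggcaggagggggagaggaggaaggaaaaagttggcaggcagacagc
Both strands of each window were searched for 4 short words: TATAAA (the TATA box), GGGCGG (the GC box), TGANTCA (the AP-1 word) and CATGTG (an E-box). Only the Aqp1 window held one of them, a single GGGCGG, which 31% of 32851 RefSeq promoter windows of the same length also held. TATAAA was found in 9.96%, CATGTG in 9.76% and TGANTCA in 5.48% of those windows.

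Alkali injury was followed by lower expression of most of the secretory set and higher expression of a pair of water channels. Comparing the injured controls with Sham, 6 members fell (Aqp4, Best2, Slc4a4, Car2, Car3 and Car14) and 2 rose (Aqp1 and Aqp5), where a call needs an adjusted p under 0.05 and a fold change over 1.5 in edgeR's quasi-likelihood test over 15010 genes. Of all genes tested, 17.5% fell and 22.1% rose in this comparison by the same rule. The median log2 fold change of the 9 members tested was -1.66, and that of all genes was 0.01. In bulk tissue, fewer cells of a type and less RNA per cell cannot be told apart. Markers of other cell types moved in the same comparison: all 6 macrophage markers rose (summed level 260 to 267 CPM in Sham and 1893 to 1996 CPM in the injured controls), and 5 of 6 iris smooth muscle markers fell (7919 to 10215 CPM and 1639 to 3367 CPM). Of 3 corneal endothelium markers, Col8a1 and Col8a2 rose and Slc4a11 fell. The part of these cells in the members' differences was not tested. These values are shown in the plot of members by library.

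**Figure D1:**
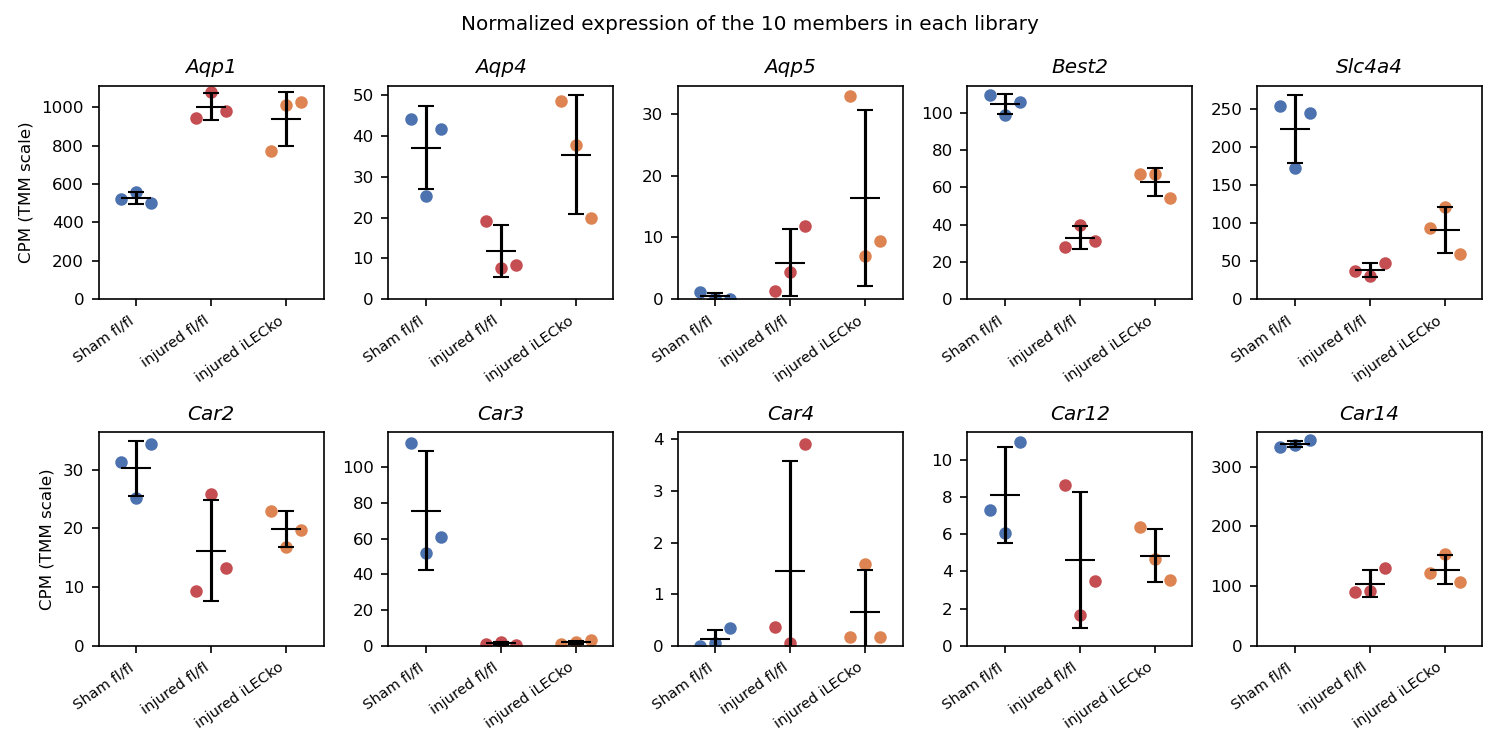
Normalized expression (CPM on the TMM scale, y axis from 0) of the 10 members in the 9 libraries, with 1 point per library and bars for mean and SD (n = 3). Best2, Slc4a4 and Car14 lie lower in every injured library than in every Sham library, and Aqp1 lies higher.

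Aqp1 (NCBI Gene ID 11826, chr6:55336299-55348555 in GRCm38) codes for the water channel of endothelia and of the unpigmented ciliary epithelium. Counts in Sham replicates 1 to 3 were 9409, 9884 and 8864, with 15564, 18462 and 17058 in the injured controls and 13250, 17849 and 17802 in the group labelled VEGFR3 iLECko. Every injured library was above every Sham library. Its mean rose from 526 ± 29.9 CPM (SD, n = 3) in Sham to 1002 ± 70.7 CPM (SD, n = 3) in the injured controls, a log2 fold change of 0.93 (SE 0.12, edgeR adjusted p = 0.0001614). Among markers of other cell types, 5 of 6 genes of blood endothelium rose with it (Cdh5, Pecam1, Tie1, Emcn and Egfl7), and their summed level with Kdr was 348 to 381 CPM in Sham and 1074 to 1167 CPM in the injured controls. Their part in the result was not tested.

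Aqp4 (11829) codes for the water channel of glia and of ciliary epithelium. It had 797, 450 and 742 counts in Sham, 315, 131 and 147 in the injured controls and 834, 668 and 344 in the group labelled VEGFR3 iLECko. The injured controls were all below the Sham libraries, with replicate 1 the highest of them. Aqp4 fell from 37.1 ± 10.2 CPM (SD, n = 3) to 11.7 ± 6.40 CPM (SD, n = 3), a log2 fold change of -1.66 (SE 0.42, edgeR adjusted p = 0.007652). Retinal and Müller glial markers, of which 3 of 6 fell in this comparison (Rlbp1, Rpe65 and Slc1a3), summed to 278 to 531 CPM in Sham and 123 to 342 CPM in the injured controls, so their ranges overlapped.

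Aqp5 (11830, chr15:99591028-99594829) codes for the water channel of tear, salivary and surface epithelia and was barely detected in uninjured irises. It had 21, 3 and 0 counts in Sham, 22, 75 and 207 in the injured controls and 562, 123 and 163 in the group labelled VEGFR3 iLECko. The lowest injured library had 1 count more than the highest Sham library, while a single library labelled VEGFR3 iLECko, replicate 1, held the highest count. Aqp5 rose from 0.444 ± 0.628 CPM (SD, n = 3) to 5.87 ± 5.43 CPM (SD, n = 3), a log2 fold change of 3.70 (SE 1.15, edgeR adjusted p = 0.02046). In the same edgeR test the call was lost on leaving out Sham replicate 2 (adjusted p = 0.07007), injured control replicate 3 (0.07745) or Sham replicate 3 (0.06143). The log2 fold change was 6.002 without Sham replicate 1, 2.66 without injured control replicate 3 and 2.89 with Y-linked expression as a covariate. Of 5 tested genes of the corneal and surface epithelium, 4 moved the other way and fell (Krt4, Krt5, Krt12 and Krt13), while Aldh3a1, with 1.93 to 117 CPM in the injured controls, had a log2 fold change of 2.57 (edgeR adjusted p = 0.06860). For Krt4, Krt5 and Krt13 the Sham libraries and the injured controls overlapped, and Krt5 ran from 0.394 to 18.2 CPM within Sham. Krt12 did not overlap, but its mean was 1.63 CPM in Sham. The summed level of the 6 genes listed was 8.95 to 56.0 CPM in Sham and 5.21 to 118 CPM in the injured controls.

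Best2 (212989, chr8:85007202-85014531) codes for bestrophin-2, an anion channel that in the mouse eye is known from the unpigmented ciliary epithelium. It had 1979, 1747 and 1879 counts in Sham, 459, 682 and 547 in the injured controls and 1154, 1185 and 943 in the group labelled VEGFR3 iLECko. The 3 groups did not overlap, and the libraries labelled VEGFR3 iLECko lay between the other groups. Best2 fell 3.17-fold with injury in the controls, from 104.7 ± 5.55 CPM (SD, n = 3) to 33.1 ± 6.20 CPM (SD, n = 3) (log2 fold change -1.66, SE 0.14, edgeR adjusted p = 9.63e-06).

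Slc4a4 (54403, chr5:88793858-89239656) codes for NBCe1, which carries sodium together with bicarbonate across epithelial membranes. It had 4579, 3038 and 4329 counts in Sham, 605, 522 and 828 in the injured controls and 1590, 2127 and 1031 in the group labelled VEGFR3 iLECko. Here too the 3 groups were apart and came in the same order. Slc4a4 fell 5.83-fold with injury in the controls, from 223 ± 44.8 CPM (SD, n = 3) to 38.3 ± 8.60 CPM (SD, n = 3) (log2 fold change -2.54, SE 0.28, edgeR adjusted p = 5.155e-05).

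Car2 (12349, chr3:14886269-14900770), the fast cytosolic carbonic anhydrase, had 565, 445 and 610 counts in Sham, 154, 441 and 231 in the injured controls and 394, 298 and 342 in the group labelled VEGFR3 iLECko. Injured control replicate 2 (25.8 CPM) reached the level of Sham replicate 2 (25.1 CPM), so these groups overlapped. Its mean fell from 30.3 ± 4.69 CPM (SD, n = 3) to 16.1 ± 8.60 CPM (SD, n = 3), a log2 fold change of -0.91 (SE 0.32, edgeR adjusted p = 0.03297). This was the weakest of the decreases: edgeR's adjusted p was 0.07868 without Sham replicate 1, 0.06612 without injured control replicate 1, 0.0981 without Sham replicate 3, 0.0977 without injured control replicate 3, 0.06569 in a fit of only the 6 libraries compared and 0.07043 with Y-linked expression as a covariate.

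Car3 (12350, chr3:14863538-14872381), a cytosolic carbonic anhydrase of low catalytic activity that is abundant in muscle and fat, showed the widest change of the members. It had 2057, 924 and 1086 counts in Sham, 15, 37 and 10 in the injured controls and 20, 33 and 51 in the group labelled VEGFR3 iLECko. Car3 fell from 75.8 ± 33.4 CPM (SD, n = 3) to 1.22 ± 0.839 CPM (SD, n = 3), that is 61.9-fold (log2 fold change -5.95, SE 0.50, edgeR adjusted p = 1.047e-05). Without injured control replicate 2, which had the highest count of the injured controls, the log2 fold change was -6.66. A pair of striated muscle genes fell with it: Mybpc1 had 739, 875 and 748 counts in Sham and 0 to 2 in the 6 injured libraries, and Ckm had 233, 294 and 235 counts in Sham and 0 to 2 in the injured libraries. Over the 11 striated muscle markers listed, the summed level was 57.9 to 69.5 CPM in Sham and 3.50 to 9.95 CPM in the injured controls. By contrast, 2 of the 5 tested (Myh2 and Tnni2) rose, and 1 with normalization by library size only. For Myh2 these groups overlapped, with means of 0.242 CPM in Sham and 1.68 CPM in the injured controls. The part of muscle fibers in the result was not tested, and the 4 adipocyte markers listed summed to at most 0.403 CPM in any library.

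Among the carbonic anhydrases that face the outside of the cell, Car4 (12351, chr11:84957754-84966054), which is anchored to the membrane by lipid and is known from capillaries, was near its detection limit. It had 0, 1 and 6 counts in Sham, 6, 1 and 68 in the injured controls and 3, 28 and 3 in the group labelled VEGFR3 iLECko, and it failed the filter. In a fit without the filter its log2 fold change was 3.40 with a 95% interval from -0.04 to 6.84 (edgeR adjusted p = 0.09461). DESeq2 called it as higher, as did edgeR's test without injured control replicate 2. Only injured control replicate 3 and the iLECko-labelled replicate 2 had more than 6 counts.

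Car12 (76459, chr9:66712296-66766845), a transmembrane carbonic anhydrase of secretory epithelia, had 132, 107 and 195 counts in Sham, 143, 28 and 61 in the injured controls and 109, 82 and 61 in the group labelled VEGFR3 iLECko. The groups overlapped, and the injured controls ranged from 1.64 to 8.68 CPM. Its log2 fold change with injury was -0.82 with a 95% interval from -1.98 to 0.35 (edgeR adjusted p = 0.20), and it passed the test without injured control replicate 1 (log2 fold change -1.65, edgeR adjusted p = 0.006984).

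Car14 (23831, chr3:95897768-95905117), a transmembrane carbonic anhydrase known from pigmented and glial cells of the eye, was the most abundant carbonic anhydrase here. Its estimated counts were 6025.25, 5946.33 and 6111.63 in Sham, 1495.36, 1567.62 and 2258.72 in the injured controls and 2074.51, 2721.38 and 1851.74 in the group labelled VEGFR3 iLECko. The injured libraries were all below the Sham libraries, while the injured groups overlapped. Car14 fell 3.25-fold, from 338 ± 5.53 CPM (SD, n = 3) to 104 ± 22.2 CPM (SD, n = 3) (log2 fold change -1.70, SE 0.17, edgeR adjusted p = 2.834e-05). Car14 overlaps Aph1a on the other strand by 445 exonic bases, and the Car14 and Aph1a counts summed to whole numbers within 0.015 counts in all 9 libraries, so reads were divided between them. Aph1a itself differed by a log2 fold change of 0.009 (edgeR adjusted p = 0.91), while pigment cell markers, all 7 of which fell, summed to 27656 to 29613 CPM in Sham and 3371 to 5810 CPM in the injured controls.

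Compared per length, as approximate TPM (transcript reads scaled by length and depth) from the longest annotated transcript, the order of the members was different in Sham and injured irises. In Sham, Aqp1 (573 ± 22.5 TPM, SD, n = 3) and Car14 (566 ± 23.7 TPM) led with overlapping ranges. Best2 (136 ± 12.5 TPM), Car3 (130 ± 62.2 TPM) and Slc4a4 (80.9 ± 19.0 TPM) followed, each overlapping with the next, and then came Car2 (48.6 ± 8.88 TPM), Aqp4 (21.2 ± 6.48 TPM) and Car12 (6.27 ± 2.06 TPM), which did not overlap with their neighbours. In the injured controls, Aqp1 (891 ± 118 TPM) stood alone above Car14 (143 ± 38.1 TPM), Best2 (35.1 ± 8.52 TPM) and Car2 (21.4 ± 12.3 TPM), and from Best2 downward every member overlapped with the next, with Car3 last at 1.70 ± 1.24 TPM. In the group labelled VEGFR3 iLECko the first 3 were again Aqp1 (925 ± 162 TPM), Car14 (193 ± 42.0 TPM) and Best2 (73.6 ± 9.08 TPM), without overlap, and Slc4a4 (29.7 ± 10.6 TPM) ranked ahead of Car2 (28.6 ± 3.51 TPM) with overlapping ranges. Aqp5 and Car4 stood last in Sham, at 0.726 ± 1.04 and 0.299 ± 0.416 TPM.

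The comparison of the injured groups asks whether the label VEGFR3 iLECko went with a difference in the same tissue after the same injury. Best2 was the 1 member that passed the test: it rose 1.90-fold in the libraries labelled VEGFR3 iLECko, to 62.9 ± 7.50 CPM (SD, n = 3), which is 60.1% of the Sham mean against 31.6% in the injured controls (log2 fold change 0.93, SE 0.14, edgeR adjusted p = 0.02630). Macrophage markers moved the other way, with 3 of 6 lower by the same test (C1qa, Cx3cr1 and Adgre1; 2 of 6 with normalization by library size only) and a summed level of 1221 to 1353 CPM against 1893 to 1996 CPM in the injured controls, and their part in the result was not tested. No member fell in edgeR's test, none had an unadjusted p under 0.05 with a fold change over 1.5 in the downward direction, and DESeq2 also called 0. Of all genes tested, 0.573% rose and 0.466% fell. The median log2 fold change of the 9 members was 0.71 and that of all genes -0.01. This comparison and the comparison of injury with Sham share the injured controls, so low values there enter both.

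Aqp4 and Slc4a4 were also higher in every library labelled VEGFR3 iLECko than in every injured control library, as was Best2, but did not pass the adjusted threshold. The count of 3 members without overlap stands against 12.4% of all genes tested that were higher in this way. Aqp4 had 19.8 to 48.7 CPM in the group labelled VEGFR3 iLECko and 7.67 to 19.1 CPM in the injured controls, a log2 fold change of 1.60 (SE 0.42, unadjusted p = 0.004274, edgeR adjusted p = 0.07824). Slc4a4 had 59.3 to 120 CPM against 30.6 to 47.5 CPM, a log2 fold change of 1.25 (SE 0.27, unadjusted p = 0.001163, edgeR adjusted p = 0.05727). DESeq2 called both, with an adjusted p of 0.002498 for Aqp4 and 0.0001799 for Slc4a4, so that its count of members that rose was 3, where DESeq2 called 2.43% of all genes with an adjusted p as higher and 1.97% as lower.

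The calls in this comparison depended on which libraries and terms entered the fit. For Best2, edgeR's adjusted p was 0.05788 without Sham replicate 1, 0.05962 without Sham replicate 3, 0.06437 without the iLECko-labelled replicate 1, 0.111 without the iLECko-labelled replicate 2, 0.1031 in a fit of only the 6 libraries compared and 0.2312 with Y-linked expression as a covariate, although its log2 fold change stayed between 0.82 and 1.09 over all alternatives. Few genes of any kind passed in those fits: edgeR called 0 genes without the iLECko-labelled replicate 2 and 0 with only the 6 libraries (2447 and 2805 had an unadjusted p under 0.05), 2 (both lower) with Y-linked expression as a covariate, and 3 to 10 as higher in the other 3 fits, against 86 as reported and 350 with DESeq2. Aqp4 passed without injured control replicate 1 (edgeR adjusted p = 0.04569), and Slc4a4 passed without injured control replicate 3 (edgeR adjusted p = 0.04970) or without the iLECko-labelled replicate 3 (edgeR adjusted p = 0.04549). Among the 4 libraries with Y-linked expression near 0 was injured control replicate 3. It had 31.4 CPM of Best2, 47.5 CPM of Slc4a4 and 8.44 CPM of Aqp4. For these members it lay below all 3 libraries labelled VEGFR3 iLECko, which their lack of overlap given above already fixes. This order is therefore no separate information on the mix of sexes. The injured control side of this comparison is 1 library, so it allows no test.

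The other members did not pass, and their intervals show what could have been missed. The 95% interval of the log2 fold change was narrow for Aqp1 (-0.37 to 0.18) and Car14 (-0.08 to 0.66). It was wider for Car2 (-0.42 to 1.02), Car3 (-0.61 to 2.03), Car12 (-1.10 to 1.25) and Aqp5 (-0.56 to 3.51), the last of which had 562 counts in the iLECko-labelled replicate 1 against 123 and 163 in the other two. Car4 had a log2 fold change of -1.15 with an interval from -4.02 to 1.71 in the fit without a filter.

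**Figure D2:**
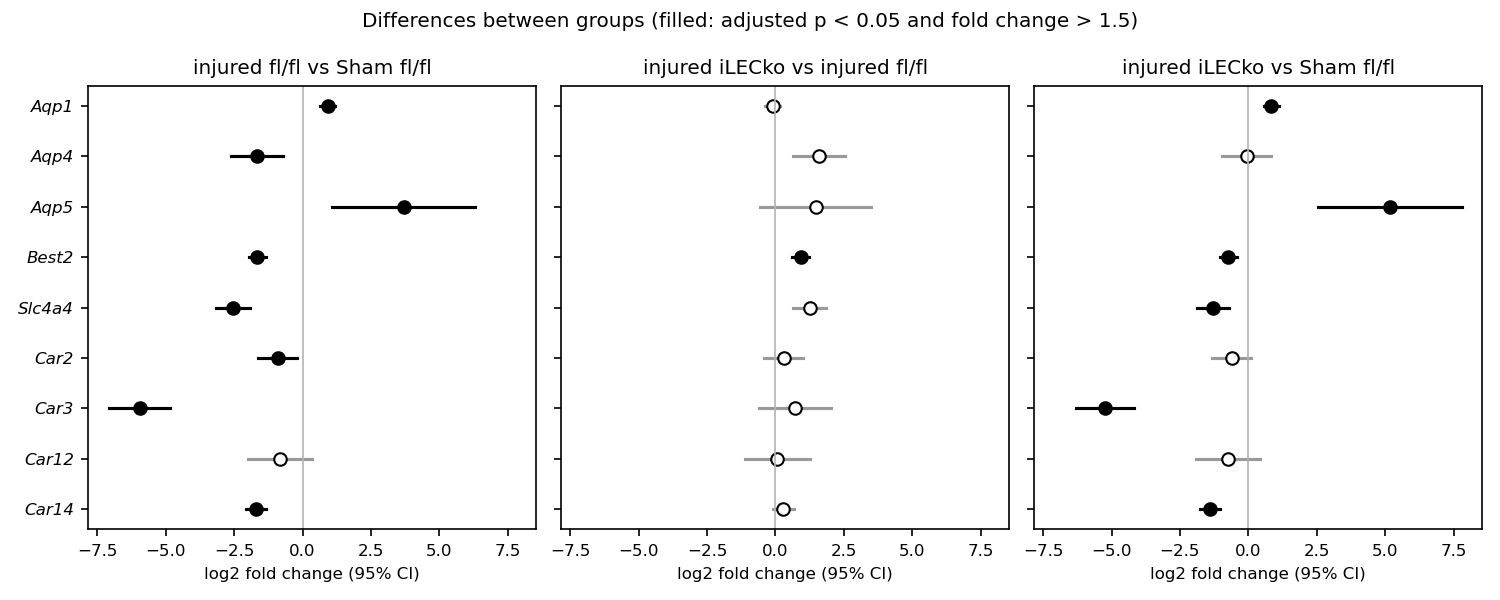
Log2 fold changes (x axis) of the 9 tested members with their 95% confidence intervals from edgeR's quasi-likelihood fit, for the 3 comparisons. Filled points passed the adjusted p of 0.05 and the fold change of 1.5: 8 with injury in the controls, 1 between the injured groups and 6 between the group labelled VEGFR3 iLECko and Sham.

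Against Sham, the group labelled VEGFR3 iLECko had 2 members that rose (Aqp1 and Aqp5) and 4 that fell (Best2, Slc4a4, Car3 and Car14), while 19.7% of all genes tested rose and 15.0% fell. The median of the 9 members was -0.73 and that of all genes -0.01. These values share their Sham libraries with the comparison of the injured controls, so the values stand side by side without a test between them. Car14 had a log2 fold change of -1.41 (SE 0.17, edgeR adjusted p = 0.0001128) here and -1.70 there, Slc4a4 one of -1.29 (SE 0.26, edgeR adjusted p = 0.002678) here and -2.54 there, and Best2 one of -0.73 (SE 0.13, edgeR adjusted p = 0.001428) here and -1.66 there. Car3 fell 37.9-fold (log2 fold change -5.24, SE 0.47, edgeR adjusted p = 2.107e-05).

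Aqp1 rose to 937 ± 141 CPM (SD, n = 3) in the group labelled VEGFR3 iLECko, a log2 fold change of 0.83 against Sham (SE 0.12, edgeR adjusted p = 0.0004008). Aqp5 rose to 16.4 ± 14.3 CPM (SD, n = 3), a log2 fold change of 5.17 (SE 1.16, edgeR adjusted p = 0.004521), which was 7.48 without Sham replicate 1 and 4.17 without the iLECko-labelled replicate 1. Aqp4 had nearly the Sham mean, at 35.5 ± 14.6 CPM (SD, n = 3), with a log2 fold change of -0.07 and a 95% interval from -0.97 to 0.84. Car2 and Car12 did not pass (log2 fold changes of -0.61 and -0.74, edgeR adjusted p = 0.13 and 0.25). With Y-linked expression as a covariate, edgeR's adjusted p was 0.06616 for Best2 and 0.1235 for Aqp5 (log2 fold change 3.37), and Car2 passed in a fit of only the 6 libraries compared (edgeR adjusted p = 0.007525), without injured control replicate 1 (edgeR adjusted p = 0.0499) or without injured control replicate 2 (edgeR adjusted p = 0.01728).

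Several genes of the ciliary epithelium list moved with the members in the same libraries, and others did not. Of 10 listed, 6 fell with injury in the controls (Optc, Zic1, Zic2, Otx1, Col2a1 and Col9a1) and 1 rose (Msx1, whose call was lost with normalization by library size only), with a median log2 fold change of -1.65. The summed level of the list was 979 to 1241 CPM in Sham, 245 to 337 CPM in the injured controls and 539 to 684 CPM in the group labelled VEGFR3 iLECko. By that sum the 3 groups were apart in the same order as for Best2 and Slc4a4. In Sham its largest parts were Optc (mean 453 CPM), Zic1 (223 CPM) and Otx1 (200 CPM). Lrp2 did not keep this order. Its mean was 25.4 CPM in Sham, 16.9 CPM in the injured controls and 38.9 CPM in the group labelled VEGFR3 iLECko. By their means, Msx1, Cacna1e and Atp6v1c2 did not keep it either. Optc had 1348, 1543 and 1293 counts in the injured controls and 4585, 4823 and 3063 in the group labelled VEGFR3 iLECko, and it rose between the injured groups (log2 fold change 1.54, SE 0.19, edgeR adjusted p = 0.02135). It was the 1 gene of the list that passed there, and the median of the list was 0.82. Pigment cell markers had a median log2 fold change of -2.44 with injury in the controls. Their summed level was 27656 to 29613 CPM in Sham and 3371 to 5810 CPM in the injured controls. In the group labelled VEGFR3 iLECko it was 5053 to 7113 CPM, so the injured groups overlapped. Zic and Otx genes are also known from the rim of the optic cup that forms the iris epithelium, so the list does not belong to the ciliary body alone. Which cells gave the Optc reads was not tested.

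Ratios within a library show how closely single members moved with Optc. Slc4a4 had 0.474 to 0.524 counts per Optc count in Sham, 0.338 to 0.640 in the injured controls and 0.337 to 0.441 in the group labelled VEGFR3 iLECko. The ranges of Sham and the injured controls overlapped, as did those of the injured groups. Every library labelled VEGFR3 iLECko lay below every Sham library in this ratio. Best2 had 0.206 to 0.274 counts per Optc count in Sham, 0.341 to 0.442 in the injured controls and 0.246 to 0.308 in the group labelled VEGFR3 iLECko. Car14 had 0.669 to 0.933, 1.02 to 1.75 and 0.452 to 0.605 counts per Optc count in the same order, and these 3 ranges were apart. Car2 had 0.0646 to 0.0698, 0.114 to 0.286 and 0.0618 to 0.112 counts per Optc count. Relative to Optc, therefore, Best2, Car14 and Car2 were higher in the injured controls than in both other groups. Aqp4 had 0.0706 to 0.0912 counts per Optc count in Sham, 0.0849 to 0.234 in the injured controls, a range that overlapped both others, and 0.112 to 0.182 in the group labelled VEGFR3 iLECko. The part of carried-over ciliary body in the members' differences was not tested: Atp6v1c2 and Cacna1e stayed at no more than 33 counts in any library, while Optc reached 9142.

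**Figure D3:**
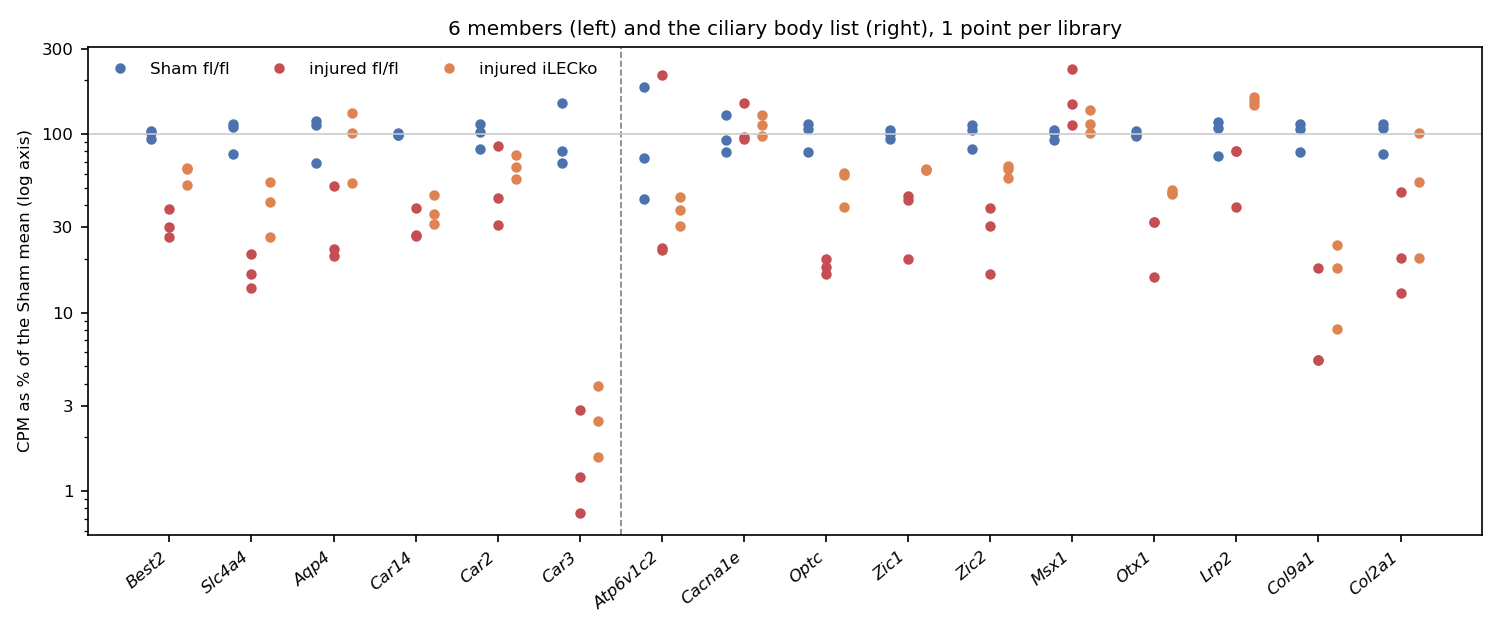
Expression of 6 members (left of the dashed line) and the 10 genes of the ciliary body list (right) as a percentage of the Sham mean in CPM, on a log axis, with 1 point per library. Best2, Slc4a4, Optc and Otx1 share an order with Sham highest, the injured controls lowest and the group labelled VEGFR3 iLECko between them, whereas Car3 stays under 4% of the Sham mean in every injured library and the groups overlap for Cacna1e.

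Other genes of fluid and bicarbonate transport gave the setting of these changes. The 3 beta subunits of the sodium pump reported here (Atp1b1, Atp1b2 and Atp1b3) fell with injury in the controls, with a median log2 fold change of -1.25, and their direction was the same under 4 normalizations. Their summed level was 1626 to 1790 CPM in Sham, 751 to 813 CPM in the injured controls and 882 to 1047 CPM in the group labelled VEGFR3 iLECko. Atp1b1 fell by 1.51 on the log2 scale (SE 0.17, edgeR adjusted p = 5.867e-05).

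Among 14 tested bicarbonate and chloride transporters other than the members, 7 fell (Slc4a3, Slc4a5, Slc4a8, Slc4a11, Slc26a4, Clcn3 and Cftr) and 1 rose (Slc12a2, the sodium potassium chloride cotransporter). Slc4a5, a further sodium bicarbonate cotransporter, fell from 846 ± 95.3 CPM (SD, n = 3) to 199.5 ± 26.9 CPM (SD, n = 3), with a log2 fold change of -2.08 (SE 0.19, edgeR adjusted p = 1.697e-05). Slc26a4, the anion exchanger pendrin, fell from 126 ± 7.50 CPM to 24.7 ± 5.59 CPM (SD, n = 3, log2 fold change -2.35, SE 0.24, edgeR adjusted p = 3.341e-05). Cftr, a chloride and bicarbonate channel, had 57, 42 and 37 counts in Sham and 8, 6 and 3 in the injured controls (log2 fold change -2.90, SE 0.38, edgeR adjusted p = 0.0001598). Slc12a2 had a log2 fold change of 0.87 (SE 0.23, edgeR adjusted p = 0.009215).

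Of 9 other carbonic anhydrases tested, 3 fell (Car7, Car8 and Car15) and 1 rose (Car9, whose call was lost with normalization by library size only). Car7 was not called by DESeq2, and its mean was 3.38 CPM in Sham and 2.21 CPM in the injured controls. Car15 had means of 1.91 and 0.89 CPM in the same order. Car8, a related protein that lacks catalytic activity, had a log2 fold change of -3.12 (SE 0.32, edgeR adjusted p = 3.235e-05). Car9, a carbonic anhydrase known to be induced by low oxygen, had one of 1.07 (SE 0.37, edgeR adjusted p = 0.03124). Of 4 other aquaporins tested, Aqp8 and Aqp11 fell and Aqp9, a channel for water and glycerol, rose (log2 fold change 2.47, SE 0.52, edgeR adjusted p = 0.002639). Best1 rose from 17, 12 and 23 counts in Sham to 130, 45 and 69 in the injured controls, opposite to Best2 (log2 fold change 2.30, SE 0.42, edgeR adjusted p = 0.00126), and Best3 did not pass.

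Between the injured groups, none of the 32 genes tested and reported from these 5 lists passed edgeR's adjusted threshold, while 10 had an unadjusted p under 0.05 upward and 1 downward, and DESeq2 called 3 as higher (Cftr, Slc26a4 and Slc4a5). Over all genes tested, 12.0% had such an unadjusted p upward and 12.5% downward. The median log2 fold change was 0.27 for the other aquaporins and for the sodium pump beta subunits, 0.20 for the bicarbonate and chloride transporters, 0.11 for the other carbonic anhydrases and -0.68 for the bestrophins. Cftr came nearest to the threshold, with 16, 21 and 22 counts in the group labelled VEGFR3 iLECko and a log2 fold change of 1.73 (SE 0.39, edgeR adjusted p = 0.06100).

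**Figure D4:**
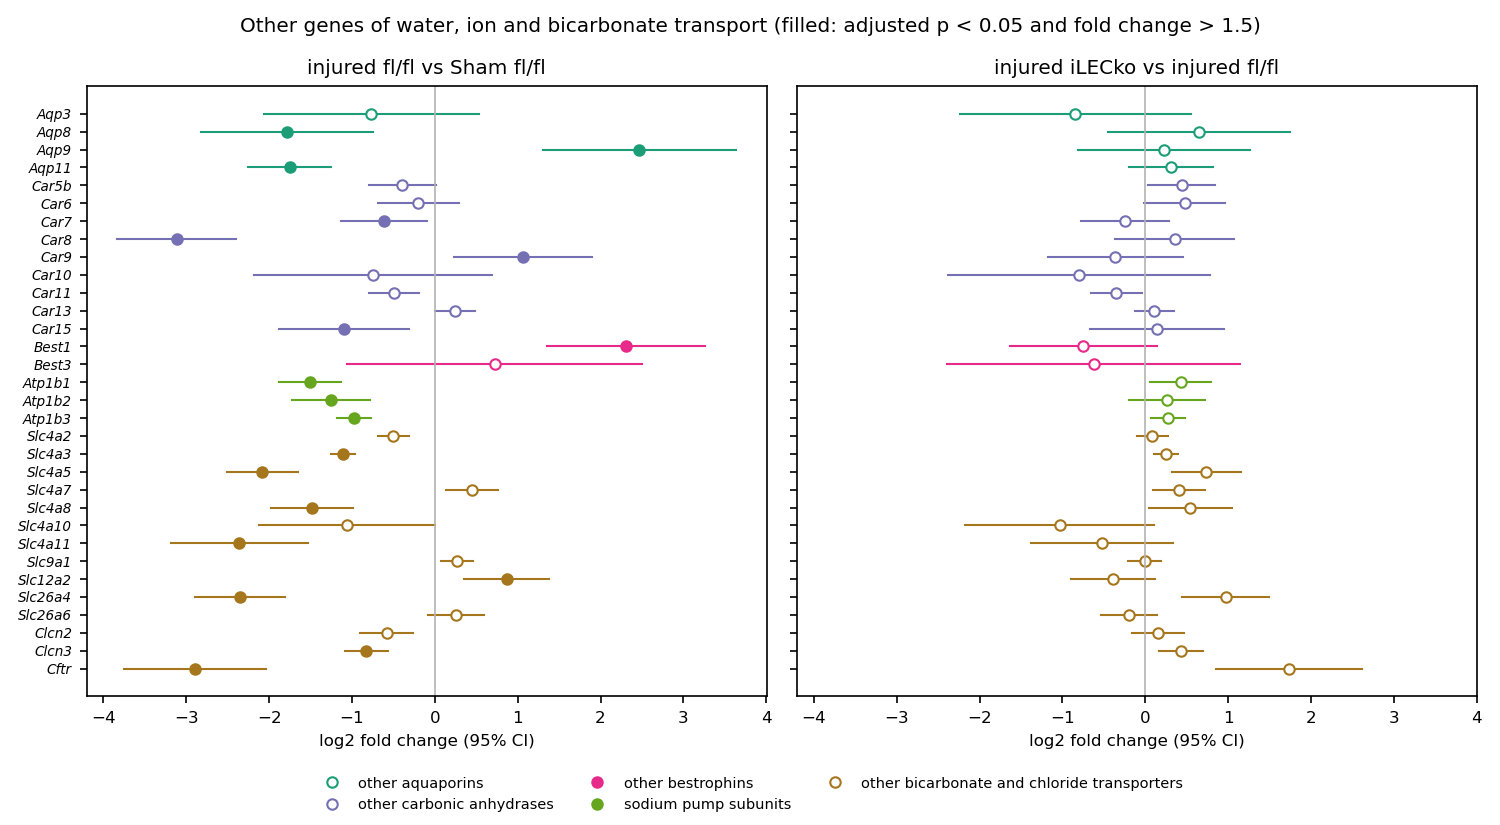
Log2 fold changes (x axis) with 95% confidence intervals of the other aquaporins, carbonic anhydrases, bestrophins, sodium pump beta subunits and bicarbonate or chloride transporters that were tested. With injury (left) the 3 sodium pump beta subunits lie below 0 and are filled (adjusted p under 0.05, fold change over 1.5), and between the injured groups (right) no point is filled.

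As a description of the pattern over the 9 libraries, the genes whose log2 CPM followed each member most closely were named by Pearson's r, which here mostly reflects the differences between the groups that all these genes share. Slc4a4 was followed by Nebl (r = 0.995), Acss3 (0.995) and Arid1b (0.990), Car14 by Fgd4 (0.997), Fam117a (0.996) and Mccc1 (0.996), and Best2 by Lrrc4c (0.987), Cadm2 (0.986) and Nos1ap (0.985). Car3 was followed by Pex26 (0.993), Nadk2 (0.987) and Tlcd1 (0.987), and Car2 by Rmdn2 (0.982), Cspg5 (0.971) and Plxnb2 (0.970). For the water channels, Aqp1 was followed by BC028528 (0.993), Slc2a9 (0.993) and Ifnar1 (0.988), Aqp4 by Il33 (0.978), Aldh1a1 (0.959) and Ppp1r1b (0.952), and Aqp5 by Tent5b (0.965), Wnt10b (0.964) and Stc2 (0.957). Car12 was followed by Nmu (0.977), Nt5dc2 (0.974) and Iqck (0.948).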

How the data were processed

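Iris RNA was sequenced in 9 libraries, 3 per group, as single-end reads of 50 bases. The authors aligned the reads with HISAT2 and Bowtie2 (2.0.4 and 2.2.5 in the submitters' processing notes, which also name DESeq2 1.4.5 and mm10) and deposited estimated counts per gene, not normalized. The program that estimated the counts, its annotation and its use of strand are not given in the sources used here. A combined table held the same values (0 differed) and was not used. Groups came from the titles. The genotype tags of the iLECko-labelled replicates 2 and 3 name another VEGFR number and were not followed.

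In R 4.3.3 the estimated counts were made whole by rounding, filtered with filterByExpr (15010 of 18349 genes kept), normalized by TMM (factors 0.900 to 1.087) and fitted together with edgeR 4.0.16 by the quasi-likelihood method, with group as the only term. The study's TPM filter could not be applied directly. Benjamini-Hochberg adjustment ran over all genes tested, and calls needed an adjusted p under 0.05 and a fold change over 1.5. Standard errors and 95% intervals were derived from the F statistic. CPM values are on the TMM scale. Lengths for approximate TPM were those of the longest GENCODE M21 transcript, found for 97.6% of genes. Strands and exon overlaps come from that annotation, and gene positions and promoters from RefSeq (GRCm38.p6). DESeq2 1.42.0 served as an alternative, besides other normalizations, filters, library sets and covariates.

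All 10 members were named, other genes of a fixed list where they passed a test or had at least 10 CPM, and for each member the 3 non-members with a mean of at least 1 CPM and the highest Pearson r of log2 CPM (prior count 2). The members and lists were chosen with earlier results of these data known. Some genes of the lists are not reported here and enter no list value.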

Additional observations from a re-analysis of the deposited data

How the results depend on the processing

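Each comparison was recomputed under 20 alternatives, 9 of which left out 1 library, and each gave a value for the 9 tested members. With injury in VEGFR3 fl/fl, 169 of 180 such values kept their direction and side of the threshold, 10 lost it and 1 gained it. Between the injured groups the numbers were 161, 7 and 7, with 5 changes of sign, and between the group labelled VEGFR3 iLECko and Sham 171, 2 and 3, with 4 changes of sign. The count of members that rose with injury in VEGFR3 fl/fl was 1 to 3 when 1 library was left out. Between the injured groups that count, 1 as reported, was 3 with DESeq2, 3 with DESeq2 after an approximate TPM filter (an alternative chosen after seeing the data), 0 with only the 6 libraries compared, 0 with the Y-linked covariate and 0 to 2 when 1 library was left out. Over all genes edgeR then called as higher 0 with only the 6 libraries (2805 had an unadjusted p under 0.05), 0 with the Y-linked covariate (1347) and 0 to 174 when 1 library was left out. Between the group labelled VEGFR3 iLECko and Sham the count that rose, 2 as reported, was 1 with the Y-linked covariate. The cause was not tested.

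Changes of sign were confined to members that did not pass in that comparison. With the Y-linked covariate the log2 fold change of Car14 between the injured groups was -0.0065, and that of Aqp4 against Sham was 0.54. When 1 library was left out, the log2 fold change between the injured groups ran from -0.33 to 0.91 for Car12 and from -0.16 to 0.023 for Aqp1, and that of Aqp4 between the group labelled VEGFR3 iLECko and Sham ran from -0.36 to 0.22.

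Titles of the groups share replicate numbers. Deviations from group means had correlations from -0.387 to 0.131 between same-numbered libraries. Libraries with different numbers were not compared in this way, so these values cannot decide whether the numbers mark a shared batch. The study reports several sequencing experiments and does not say whether the replicate numbers follow them. With the replicate block, 0 members rose between the injured groups, where Best2 had an edgeR adjusted p of 0.06274, and Car2 with injury had one of 0.05144. Normalization by library size only moved the all-gene median of the log2 fold change to -0.16 with injury in VEGFR3 fl/fl, and that of the members to -1.83. It gave 2783 genes up and 3523 down there, against 3323 and 2630 with TMM. Car4, with at most 68 counts in any library, and Aqp5 and Car12, with under 250 counts in most, limit what can be said at this depth.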

Other observations

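Hemoglobin and other erythrocyte markers summed to 545 to 1201 CPM in Sham, 209.6 to 503 CPM in injured VEGFR3 fl/fl and 279 to 1008 CPM in the group labelled VEGFR3 iLECko, with overlapping ranges between the injured groups.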
